A study of Mus musculus with 16 samples.

Results

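The genes described here encode core components of the spliceosome, taken from the table of counts by symbol: every gene whose name begins with Snrp, Sf3a, Sf3b, Prpf, Lsm followed by a digit, or U2af. That rule gave 50 genes of the 15119 in the table, and all 50 were among the 14434 genes that passed the filter on low counts and were tested. It uses names only, so it also takes in 6 genes for LSm proteins that act outside the spliceosome. Counts over the 50 genes include these 6, which are described in a paragraph of their own. The study sequenced polyadenylated RNA from the liver of female mice of 2 genotypes, wild type (WT) and LKO, in which Arglu1, a gene for a transcriptional coregulator, is knocked out in hepatocytes. The mice were kept on chow to 9 months of age and then had chow or a high-fat diet (HFD, code TD. 88137) for 12 weeks, which makes 4 groups of 4 libraries: WT on chow, LKO on chow, WT on HFD and LKO on HFD. The Cre driver and the deleted exons of LKO are not given in the sources used here, nor is it stated that each library came from its own animal, so p-values measure the spread between these libraries.

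The spliceosome removes introns from precursor messenger RNA and is rebuilt on each intron from small nuclear ribonucleoproteins (snRNPs), each a short RNA with a ring of Sm or LSm proteins and proteins of its own. U1 binds the start of the intron, the U2AF dimer binds its end, and the U2 snRNP with the SF3A and SF3B complexes settles on the branch point. The U4/U6.U5 tri-snRNP then joins and is rearranged into the catalytic centre, with PRPF8 as its scaffold and the PRPF19 complex holding the active form. ARGLU1 has been described both as a coactivator of nuclear receptors and as a factor that affects splice site choice.

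The libraries held 19142612 to 25120565 expected counts each. Arglu1, the check of the genotype labels, lay at 41.2 ± 2.62 CPM (counts scaled to the depth of the library) in WT on chow, 14.7 ± 1.56 in LKO on chow, 42.2 ± 1.70 in WT on HFD and 15.5 ± 1.53 in LKO on HFD (mean ± SD, n = 4 each). It fell in both diets (log2 fold change -1.49 on chow and -1.44 on HFD), and what stayed in LKO cannot be divided between undeleted hepatocytes, other liver cells and RNA that lacks an exon. Hepatocyte markers summed to 91285 to 120691 CPM in WT on chow, 115790 to 124505 in LKO on chow, 66830 to 72664 in WT on HFD and 86148 to 98702 in LKO on HFD, so they were abundant in every library. Of these 8 markers, 4 were lower in LKO on chow, and on HFD 1 was higher and 3 were lower. Of the markers fixed for Kupffer cells, macrophages, T and NK cells, endothelium, stellate cells, bile duct and proliferating cells, none was called in a genotype comparison, while 1 of 5 B and plasma cell markers was lower on chow. Some of these sums varied widely within groups. Kupffer cell markers ran from 176 to 416 CPM in WT on chow, and endothelial markers from 105 to 297 CPM in WT on HFD. In whole liver, fewer cells of a type and less RNA per cell cannot be told apart.

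All 50 spliceosome genes were expressed in every group, and their levels differed far more between genes than between groups. Per length (CPM per kb of merged exons), Prpf8 was highest with a mean of 29.5 over the 16 libraries, followed by Snrpb, an Sm protein, at 22.3 and Sf3b2, a subunit of SF3B, at 15.3. U2af2, the large subunit of U2AF, lay at 14.9, Prpf19 at 13.9 and U2af1, the small subunit of U2AF, at 13.6. Lowest were Lsm11 at 0.770, Lsm8 at 0.990 and Lsm3 at 1.12 CPM per kb. Lsm11 belongs to the U7 snRNP of histone mRNA processing, and Lsm3 and Lsm8 belong to the ring on U6. The order at the top depends on the length used: per kb of the longest transcript, U2af1 was highest at 33.9, before Sf3b2 at 32.5, Prpf8 at 29.5 and Snrpb at 25.8, while the same 3 genes were lowest. The ratio of a gene's highest to its lowest group mean had a median of 1.20 over the 50 genes, was under 1.25 in 32 of them and reached 2.69 for Snrpn. Summed over the genes, the libraries gave 1433 to 1636 CPM after TMM scaling, and whether WT and LKO lay apart depended on that scaling. As CPM, every WT library on chow (1556 to 1636) lay above every LKO library (1433 to 1531), while on HFD WT (1527 to 1622) and LKO (1448 to 1532) overlapped. As a share of the unscaled counts, the chow groups overlapped (0.146% to 0.156% in WT, 0.146% to 0.158% in LKO), and on HFD WT (0.157% to 0.162%) lay above LKO (0.147% to 0.156%). The mean TMM factor was 0.952 in WT on chow and 1.01 in LKO on chow. The sum also gives most weight to abundant genes. On chow Prpf8 gave 235 to 288 CPM of it in WT and 151 to 229 in LKO, and Sf3b1 131 to 172 and 112 to 127 CPM. The median log2 fold change of the 50 genes on chow was -0.0069, with 26 negative and 24 positive. The gap in the sum thus does not describe the typical gene.

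**Figure D1:**
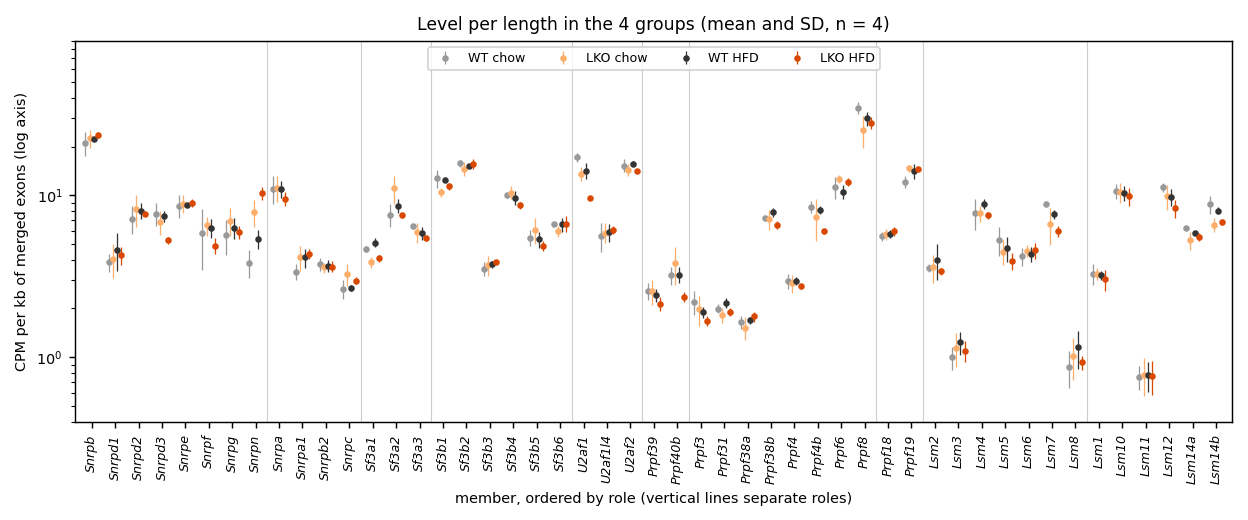
Level of 49 of the spliceosome genes per length (CPM per kb of merged exons, log axis), ordered by role, with the mean of each of the 4 groups as a point and a bar of 1 SD (n = 4). Prpf8 at 29.5 and Snrpb at 22.3 CPM per kb over all libraries stand at the top and Lsm11 at 0.770 at the bottom.

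Loss of Arglu1 in hepatocytes was compared with WT in each diet. On chow 11 of the 50 genes were called (edgeR quasi-likelihood test, Benjamini-Hochberg adjusted p below 0.05 over all genes tested), 3 higher and 8 lower in LKO, while 24.7% of all genes tested were called (12.9% higher and 11.8% lower). On HFD 5 were called, 1 higher and 4 lower, against 17.9% of all genes (10.3% higher and 7.57% lower). The share of spliceosome genes called was thus no higher than that of all genes in either diet. The median log2 fold change of the 50 genes was -0.0069 on chow, beside 0.023 for all genes, and -0.11 on HFD, beside -0.0062. On chow 26 of the 50 had a negative log2 fold change and on HFD 36. The 2 genotype comparisons use different libraries: 23 genes were negative in both, 11 positive in both and 16 of opposite sign. Called in both diets were Snrpn, higher, and U2af1 and Sf3a1, lower, and 37 genes were called in neither. Fitted on the libraries of 1 diet alone, 3 genes were called on chow (Snrpn, Lsm14b and Sf3a2, beside 15.4% of all genes) and 9 on HFD (25.7%). Those on HFD were Snrpn, higher, and U2af1, Sf3a1, Snrpd3, Prpf4b, Prpf40b, Prpf38b, Lsm7 and Lsm14b, lower. In that fit U2af1 and Sf3a1 lost their chow calls (adjusted p = 0.0633 and 0.0908) and kept those on HFD.

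The 4 LKO libraries lay wholly apart from the 4 WT libraries for 10 genes on chow, 3 higher and 7 lower, where 21.4% of all genes did so (9.98% lower). On HFD 11 genes did, 1 higher and 10 lower, against 27.8% of all genes (12.7% lower). The estimates were fairly narrow: the 95% interval of the fold change stayed within 1.5-fold in either direction for 39 genes on chow and 40 on HFD. The only fold change beyond 2-fold was that of Snrpn on chow.

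**Figure D2:**
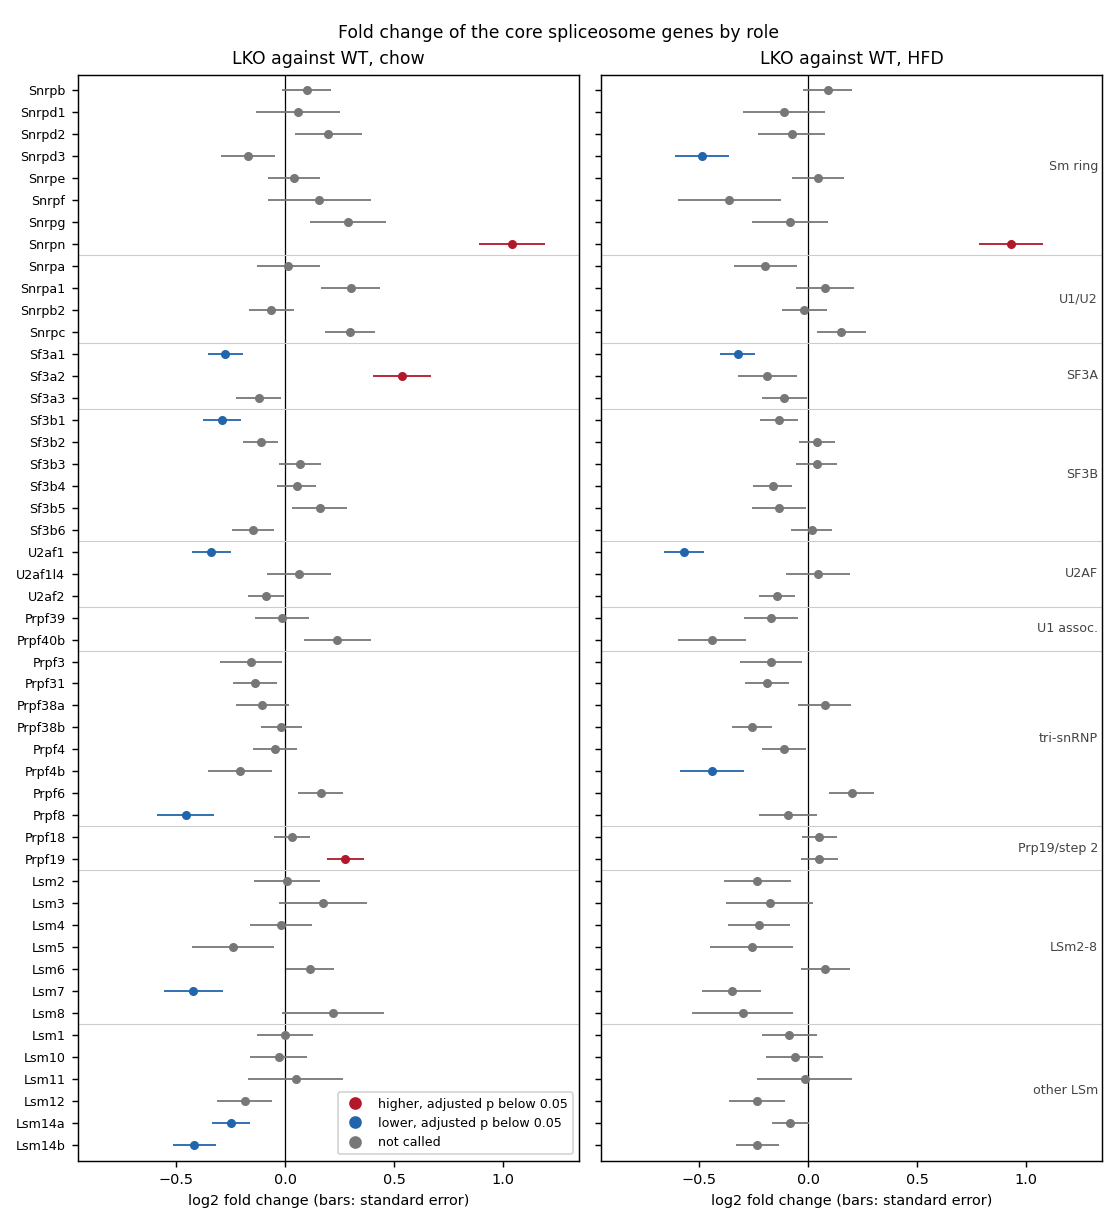
Log2 fold change of LKO against WT for 49 of the spliceosome genes, on chow and on HFD, grouped by role, with bars of 1 SE, red or blue points for genes called higher or lower and grey points for those not called. Snrpn lies far to the right at 1.04 and 0.93, and U2af1 lies to the left at -0.34 and -0.57.

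The Sm proteins form the ring that binds most spliceosomal RNAs, and 2 of its 8 genes changed with genotype. Snrpn encodes SmN, a close relative of the SmB protein encoded by Snrpb that takes its place in the ring, and is known as a brain-rich, imprinted gene expressed from the paternal allele. The first 120 coding bases of each are shown because the result for Snrpn rests on reads that can be told from those of Snrpb (GRCm38, GENCODE M21, both genes on the minus strand, exons within chr2:130177050-130179236 and chr7:59987447-59988604), with the bases that differ in capitals.
Snrpb: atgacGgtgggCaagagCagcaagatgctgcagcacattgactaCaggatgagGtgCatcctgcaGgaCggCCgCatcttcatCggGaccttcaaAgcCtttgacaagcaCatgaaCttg
Snrpn: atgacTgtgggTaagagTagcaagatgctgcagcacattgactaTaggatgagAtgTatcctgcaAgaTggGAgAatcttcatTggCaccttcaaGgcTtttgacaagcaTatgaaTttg
The pair differed at 17 of these 120 bases, and over 693 aligned coding bases they were 80.5% identical with a longest identical run of 32 bases, shorter than the reads of 150 bases.

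Snrpn (chromosome 7, 59982495 to 60140219, minus strand) measured 6.96, 8.59, 7.10 and 10.4 CPM in the WT libraries on chow and 14.93, 14.03, 21.23 and 18.02 CPM in LKO on chow. The HFD libraries gave 10.3, 13.4, 10.3 and 12.6 CPM in WT and 24.95, 22.64, 21.08 and 20.24 CPM in LKO. Every LKO library lay above every WT library of either diet. Its log2 fold change came to 1.04 ± 0.152 on chow (± is the SE of a fold change throughout, adjusted p = 9.11e-05) and to 0.93 ± 0.149 on HFD (adjusted p = 0.000264). Both calls held with any 1 library left out. Snrpb did not move with it: on chow its libraries ran from 32.1 to 48.2 CPM for WT, and for LKO from 36.2 to 50.2 CPM. On HFD they ran from 42.8 to 45.3 CPM for WT and from 44.3 to 48.8 CPM for LKO. The log2 fold changes of Snrpb were 0.10 on chow (adjusted p = 0.579) and 0.09 on HFD (adjusted p = 0.652). Per length, Snrpn made up 15.5% ± 2.10 of the sum of Snrpn and Snrpb in WT on chow and 26.2% ± 5.33 in LKO on chow, and 19.5% ± 2.06 and 30.3% ± 2.20 on HFD (mean ± SD, n = 4 each). The Snrpn locus also carries Snurf (59995449 to 60005049), which lies within it and is not among the genes analysed here, and a pseudogene, Gm5802, matches Snrpn over 700 bases. Expected counts of Snrpn were fractional in 11 of 16 libraries, and how reads were divided among these genes was not tested.

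Snrpd3, which encodes the Sm protein SmD3, fell on HFD. It measured 23.34, 27.34, 27.03 and 24.30 CPM in WT on HFD and 19.1, 17.5, 18.9 and 17.2 CPM in LKO on HFD, with no overlap. On chow it measured 26.8, 24.2, 22.5 and 32.6 CPM in WT and 18.5, 22.2, 26.4 and 27.2 CPM in LKO, and these overlapped. LKO against WT gave a log2 fold change of -0.49 ± 0.125 on HFD (adjusted p = 0.0108) and -0.17 on chow (adjusted p = 0.354). The other 6 Sm genes were called in neither diet. Snrpf, named after its values were seen, measured 2.26 CPM in WT chow library 3 and 5.07 to 7.10 CPM in the other WT chow libraries.

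None of the 4 genes for proteins particular to U1 and U2 was called by edgeR in either diet. Snrpc encodes the U1-C protein, which steadies U1 at the start of the intron, and measured 18.5, 18.8, 13.8 and 18.1 CPM in WT and 18.1, 18.9, 23.1 and 25.1 CPM in LKO on chow (log2 fold change 0.30, adjusted p = 0.0651). It was called higher on chow by limma voom (adjusted p = 0.0269), with upper-quartile scaling (0.0488), with a mean count of at least 50 (0.0482) and without LKO chow library 1 (0.0269), library 2 (0.0368) or both (0.00401). Under HFD the values were 18.4, 17.6, 16.9 and 16.9 CPM in WT and 18.4, 19.2, 20.6 and 19.3 CPM in LKO (0.15, adjusted p = 0.395). Snrpa, for the U1-A protein, spread widely within groups, from 27.1 to 39.5 CPM in WT on chow, 27.1 to 38.3 in LKO on chow, 29.4 to 37.9 in WT on HFD and 24.3 to 31.4 in LKO on HFD. Snrpa1 and Snrpb2 encode the proteins that bind the U2 RNA and had log2 fold changes of 0.30 and -0.06 on chow and of 0.08 and -0.02 on HFD.

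SF3A joins the U2 snRNP before it meets the branch point, and 2 of its 3 genes were called on chow, in opposite directions. Sf3a1, for a subunit of SF3A, measured 29.8, 26.7, 29.2 and 29.2 CPM in WT and 22.9, 26.3, 24.1 and 21.6 CPM in LKO on chow. The HFD values were 28.2, 32.2, 32.2 and 32.9 CPM in WT and 23.7, 24.8, 25.3 and 26.4 CPM in LKO. LKO lay below WT without overlap in both diets. LKO against WT gave a log2 fold change of -0.27 ± 0.081 on chow (adjusted p = 0.0191) and -0.32 ± 0.081 on HFD (adjusted p = 0.00874). Without LKO chow library 4 the chow value was -0.23 and its adjusted p 0.0642, and without libraries 3 and 4 it was -0.22 (adjusted p = 0.128).

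Sf3a2, for the subunit that contacts the branch point region, measured 22.8, 18.1, 16.6 and 23.4 CPM in WT and 24.4, 24.4, 34.9 and 33.7 CPM in LKO on chow. All LKO libraries lay above WT, and libraries 3 and 4 lay furthest above. On HFD the order was not the same, at 23.73, 22.96, 24.97 and 19.60 CPM in WT and 20.9, 19.3, 20.4 and 19.6 CPM in LKO, and the groups overlapped. LKO against WT gave a log2 fold change of 0.54 ± 0.135 on chow (adjusted p = 0.00748) and -0.19 on HFD (adjusted p = 0.374), and the interaction, at -0.72, did not pass the test (adjusted p = 0.395). Without LKO chow libraries 3 and 4 the chow value was 0.27 (adjusted p = 0.180). Sf3a2 shares 429 bases with its neighbour Plekhj1, whose log2 fold change on chow was 0.34 (adjusted p = 0.082). Expected counts of Sf3a2 were fractional in all 16 libraries. Sf3a3 was not called (-0.12 and -0.11).

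SF3B holds the branch point itself, and 1 of its 6 genes was called, on chow. Sf3b1, for its largest subunit, measured 138, 131, 172 and 139 CPM in WT and 127, 122, 112 and 114 CPM in LKO on chow. With HFD the libraries gave 135, 145, 140.3 and 146 CPM in WT and 136, 132, 124 and 124 CPM in LKO. LKO lay below WT on chow without overlap, and WT library 3 was the highest. Its log2 fold change was -0.29 ± 0.088 on chow (adjusted p = 0.0219) and -0.13 on HFD (adjusted p = 0.324). Without WT chow library 3 it was -0.20 (adjusted p = 0.0799), and without LKO chow libraries 3 and 4 it was -0.22 (adjusted p = 0.165). Sf3b2, the SF3B gene with the highest level per length, ran on chow from 103 to 116 CPM for WT and from 93.0 to 113 CPM for LKO, and on HFD from 99.6 to 106 and from 96.7 to 113 CPM.

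U2AF reads the end of the intron, and U2af1, its small subunit, which contacts the terminal AG, had the lowest level in LKO on HFD. It measured 48.7, 41.9, 43.1 and 44.9 CPM in WT on chow and 31.4, 33.0, 38.1 and 38.8 CPM in LKO on chow. On HFD it measured 33.8, 42.6, 37.0 and 34.4 CPM in WT and 25.4, 24.2, 25.3 and 24.7 CPM in LKO. LKO lay below WT without overlap in each diet, and the LKO libraries on HFD lay below all others. WT on HFD (36.9 ± 4.01 CPM) and LKO on chow (35.3 ± 3.70 CPM), next to each other in the order of the means, overlapped (mean ± SD, n = 4). The change in log2 was -0.34 ± 0.092 on chow (adjusted p = 0.0117) and -0.57 ± 0.092 on HFD (adjusted p = 0.000302). Without LKO chow libraries 1 and 2 the chow value was -0.22 (adjusted p = 0.0976). Annotated pseudogenes, 3 in number, match U2af1 closely, the longest over 726 bases, so its counts are uncertain to the extent that reads were shared with them. Its expected counts were fractional in all 16 libraries, and how reads were divided was not tested.

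U2af2, for the large subunit that binds the polypyrimidine tract, measured 66.5, 62.6, 54.6 and 67.3 CPM in WT and 53.2, 57.5, 64.0 and 61.6 CPM in LKO on chow. On HFD it measured 61.7, 67.4, 65.6 and 63.4 CPM in WT and 57.9, 58.5, 59.0 and 58.1 CPM in LKO, without overlap, but the difference was small and not called (log2 fold change -0.14, adjusted p = 0.248). U2af1l4, a relative of U2af1, had log2 fold changes of 0.06 and 0.05.

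Among the 8 genes of the U5 and U4/U6.U5 tri-snRNP and the factors that act with it, Prpf8 was called on chow and Prpf4b on HFD. Prpf8 measured 257, 256, 288 and 235 CPM in WT and 229, 220.2, 154 and 151 CPM in LKO on chow. On HFD it measured 238, 193, 219 and 240.4 CPM in WT and 230.3, 215, 187 and 204 CPM in LKO. On chow all LKO libraries lay below WT, and libraries 3 and 4 well below the other LKO libraries. On HFD the groups overlapped. The log2 fold change was -0.46 ± 0.131 on chow (adjusted p = 0.0167) and -0.09 on HFD (adjusted p = 0.698). Without LKO chow libraries 3 and 4 the chow value was -0.20 (adjusted p = 0.248).

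Prpf4b, for a kinase that phosphorylates tri-snRNP proteins, measured 65.8, 74.5, 65.9 and 67.5 CPM in WT on HFD and 49.9, 49.2, 53.4 and 48.9 CPM in LKO on HFD. On chow it measured 64.3, 70.2, 77.5 and 74.2 CPM in WT and 44.3, 48.3, 75.6 and 79.6 CPM in LKO. The groups lay apart on HFD, while on chow LKO libraries 1 and 2 lay below WT and libraries 3 and 4 did not. The log2 fold change was -0.44 ± 0.148 on HFD (adjusted p = 0.0462) and -0.21 on chow (adjusted p = 0.340). The HFD call was lost when any 1 of its 8 libraries was left out (adjusted p = 0.0645 to 0.104). Of 16 alternatives, 6 kept the call and 10 lost it. Among those that kept it were DESeq2 (adjusted p = 0.0280), limma voom (0.00228) and the edgeR fit of the HFD groups alone (0.000626). Prpf38b, a further factor of this stage, had a log2 fold change of -0.26 on HFD (adjusted p = 0.0637) and -0.02 on chow, with LKO below WT in all libraries on HFD. On HFD Prpf38b was called lower by DESeq2 (adjusted p = 0.0421), limma voom (0.00752) and the edgeR fit of the HFD groups alone (0.0191), and by no other alternative. It is named after its values were seen. Prpf3, Prpf4, Prpf6, Prpf31 and Prpf38a, which hold U4, U6 and U5 together or enter with them, were called in neither diet, with log2 fold changes from -0.19 to 0.20.

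Prpf19, the ubiquitin ligase that gives its name to the complex that stays with the active spliceosome, measured 86.3, 78.6, 97.6 and 89.6 CPM in WT and 100.4, 113, 109 and 105 CPM in LKO on chow. On HFD it measured 91.3, 116, 106 and 97.6 CPM in WT and 108, 107, 103 and 106 CPM in LKO. It was higher in all LKO libraries on chow (log2 fold change 0.28 ± 0.087, adjusted p = 0.0264), and the groups overlapped on HFD (0.05, adjusted p = 0.749). The chow call was lost without WT library 1 or 2 or LKO library 2 or 3, with adjusted p values of 0.0566, 0.083, 0.0548 and 0.0607, and without LKO chow libraries 3 and 4 together (adjusted p = 0.0824). Prpf18, which acts in the second step of splicing, had log2 fold changes of 0.03 and 0.05.

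LSm proteins fall into the ring on U6 and a set with other work. In the ring of 7 genes, Lsm7 was called on chow. It measured 14.7, 13.8, 14.7 and 13.7 CPM in WT and 8.11, 8.91, 11.5 and 14.1 CPM in LKO on chow, and 12.9, 11.6, 12.8 and 11.6 CPM in WT and 9.92, 9.07, 10.4 and 8.86 CPM in LKO on HFD. On chow LKO library 4 lay within the WT range, and on HFD the groups lay apart. The log2 fold change was -0.42 ± 0.137 on chow (adjusted p = 0.0319) and -0.35 ± 0.137 on HFD (adjusted p = 0.0869). On HFD Lsm7 was called lower by limma voom (adjusted p = 0.0073) and in the edgeR fit of the HFD groups alone (0.0186). The other alternatives did not call it on HFD. Leaving out WT library 1, 2 or 3 or LKO library 1 or 2 ended the chow call (adjusted p = 0.0598 to 0.0869), and without LKO chow libraries 1 and 2 together the value was -0.16 (adjusted p = 0.313). Lsm4, the ring gene with the highest level per kb of merged exons (Lsm7 by the longest transcript), ranged on chow from 5.60 to 9.71 CPM for WT and from 7.27 to 9.29 CPM for LKO. Its HFD libraries ranged from 8.72 to 10.1 CPM for WT and from 7.48 to 8.40 CPM for LKO (log2 fold change -0.23, adjusted p = 0.299).

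Outside the spliceosome, Lsm14b, for an RNA-binding protein of cytoplasmic granules, measured 29.9, 24.4, 22.2 and 25.2 CPM in WT and 17.5, 21.5, 17.4 and 19.6 CPM in LKO on chow. On HFD it measured 24.40, 21.54, 23.96 and 23.21 CPM in WT and 20.9, 20.2, 19.3 and 18.8 CPM in LKO. LKO lay below WT in both diets without overlap. The log2 fold change was -0.42 ± 0.098 on chow (adjusted p = 0.00467) and -0.23 ± 0.098 on HFD (adjusted p = 0.111). On HFD Lsm14b was called lower by limma voom (adjusted p = 0.0181) and in the edgeR fit of the HFD groups alone (0.0349). The other alternatives did not call Lsm14b on HFD. Its relative Lsm14a, named after its values were seen, fell on chow from 38.4 ± 1.03 to 32.3 ± 4.13 CPM (log2 fold change -0.25, adjusted p = 0.0433), and the value was -0.10 (adjusted p = 0.425) without LKO chow libraries 3 and 4. Leaving out any 1 WT chow library, or LKO chow library 3 or 4, also ended that call. Lsm10 of the U7 snRNP had the highest level per kb of merged exons of this set (Lsm14a by the longest transcript) and ranged from 8.24 to 11.9 CPM over all 16 libraries. Lsm1, Lsm10, Lsm11 and Lsm12 were called in no comparison by edgeR with all 16 libraries. Lsm12 was called lower on chow without LKO chow libraries 3 and 4 (adjusted p = 0.0445), and for diet in LKO without libraries 1 and 2 (0.0242).

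**Figure D3:**
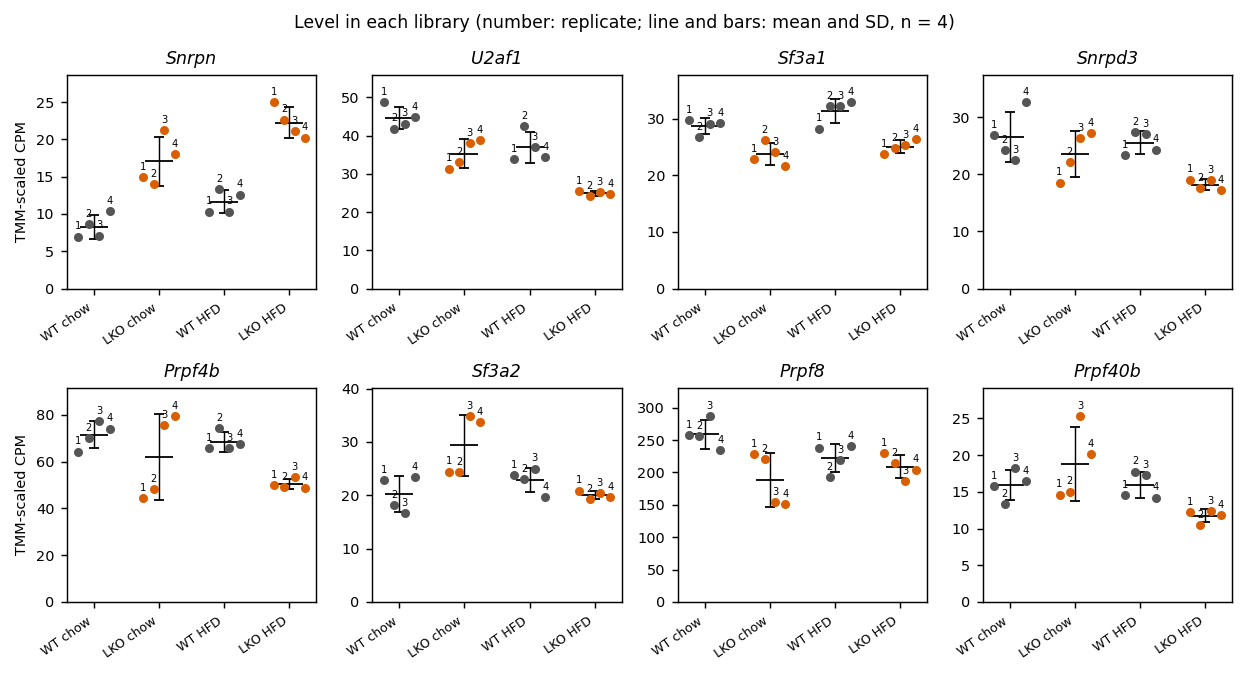
CPM of 8 spliceosome genes in each of the 16 libraries by group, with the group mean and a bar of 1 SD. Snrpn is higher in LKO in both diets, U2af1 and Sf3a1 are lower in both, and for Sf3a2, Prpf8, Prpf4b and Prpf40b the LKO chow libraries fall into a low and a high pair.

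That split of the LKO chow group ran through many of the genes. On the second principal component of all genes tested (13.8% of the variance), LKO chow libraries 3 and 4 lay at 38.1 and 34.7 and libraries 1 and 2 at -10.7 and -11.1. Some cell marker sums also differed between these pairs. In LKO chow libraries 1 to 4, Kupffer cell markers summed to 398, 348, 90.3 and 191 CPM. Endothelial markers summed to 270, 223, 104 and 90.7 CPM and stellate markers to 314, 279, 206 and 195 CPM. Those of proliferating cells went the other way, at 47.3, 46.8, 55.0 and 52.2 CPM. The part of cell content in the split was not tested. Without libraries 3 and 4, 6 of the 50 genes were called on chow, beside 16.2% of all genes: Snrpn higher (0.81, adjusted p = 0.00224) and U2af1 (-0.47, adjusted p = 0.00441), Lsm7, Lsm12, Lsm14b and Prpf4b lower. Without libraries 1 and 2, 15 were called, 9 higher and 6 lower, beside 34.3% of all genes. U2af1 and Lsm7 were then not called, while Snrpn was at 1.24.

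The libraries also differed with transcript length. Across the 50 genes, the Spearman correlation of a library's deviation from the gene means with merged exon length ran from -0.379 in WT chow library 4 to 0.578 in WT chow library 3. It was -0.266 in WT chow library 1, 0.0213 in WT chow library 2 and 0.231, 0.0196, -0.313 and -0.348 in LKO chow libraries 1 to 4, and it lay between -0.215 and 0.292 in the HFD libraries. Across the 13903 genes with a length it ran from -0.253 in LKO chow library 4 to 0.322 in WT chow library 3. For the log2 fold change on chow it was -0.188 across the 50 genes and -0.155 across all, and on HFD 0.0917 and -0.0702. These are correlations across genes, which share their libraries and are not independent replicates. The part of length in the chow results was not tested.

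**Figure D4:**
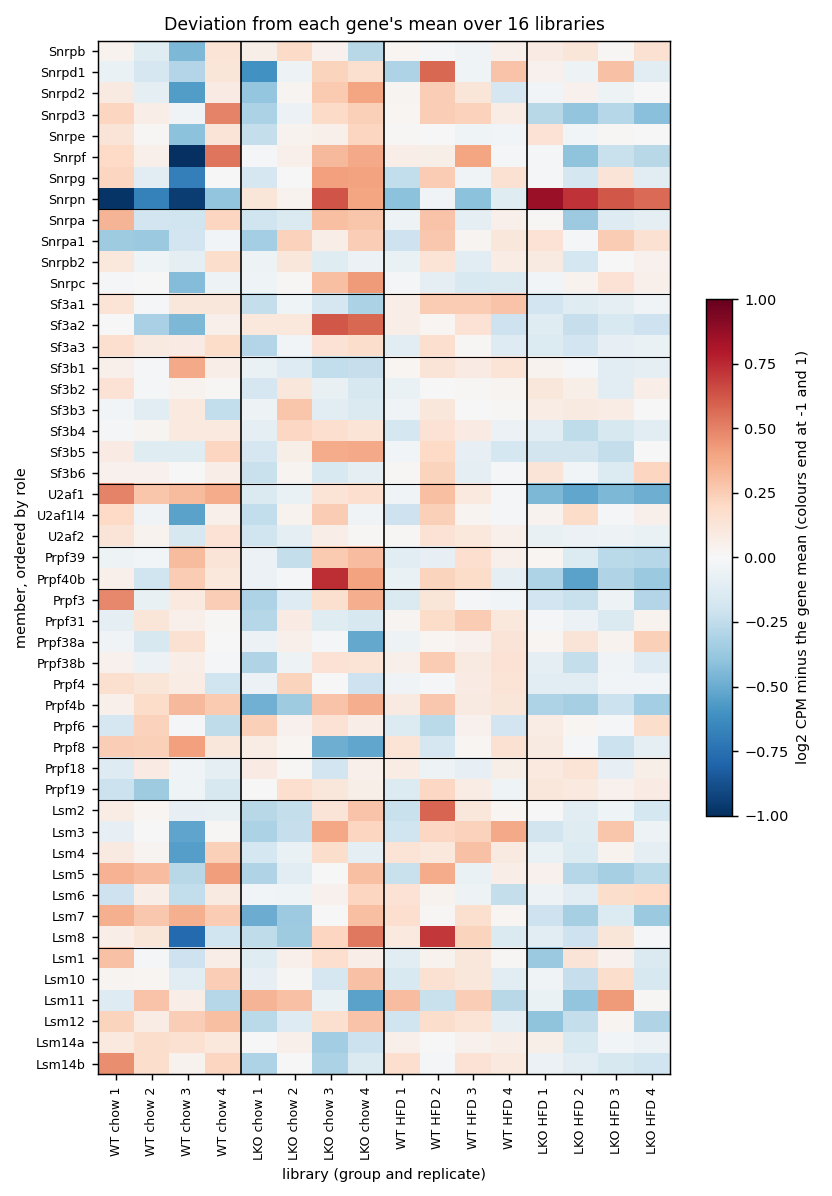
Deviation (log2 CPM, colours ending at -1 and 1) of 49 of the spliceosome genes from their own means in each of the 16 libraries, with genes grouped by role. LKO chow libraries 3 and 4 differ from libraries 1 and 2. Most genes of the Sm ring and of the LSm2 to LSm8 ring are low in WT chow library 3, though Lsm7 is not.

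Diet was compared within each genotype. In WT none of the 50 genes was called by edgeR, where 2.04% of all genes were, with 4 genes at an unadjusted p below 0.05. DESeq2 called 0 and limma voom 1, U2af1 (adjusted p = 0.0399). Snrpn had a log2 fold change of 0.49 (adjusted p = 0.109) and U2af1 of -0.27 (adjusted p = 0.140), and the 95% interval lay within 1.5-fold for 44 genes. In LKO 3 genes fell with HFD, beside 2.22% of all genes called (1.07% lower): U2af1 by 0.50 ± 0.092 in log2 (adjusted p = 0.00776), Prpf40b by 0.68 ± 0.155 (adjusted p = 0.0289) and Sf3a2 by 0.55 ± 0.135 (adjusted p = 0.0388). The diet and genotype comparisons share groups, so they are not independent of each other.

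Prpf40b, for a protein associated with U1, measured 14.63, 15.03, 25.37 and 20.12 CPM in LKO on chow and 12.3, 10.5, 12.4 and 11.8 CPM in LKO on HFD. In WT it measured 15.8, 13.3, 18.2 and 16.4 CPM on chow and 14.6, 17.8, 17.3 and 14.2 CPM on HFD. LKO on HFD lay below the other 3 groups. Its genotype difference on HFD was -0.44 ± 0.155 (adjusted p = 0.0568). That difference was called by DESeq2 (adjusted p = 0.0418), limma voom (0.00853), the edgeR fit of the HFD groups alone (0.00861) and the replicate block (0.0372). The other alternatives did not call it. Prpf39, also associated with U1, was called in no comparison, with genotype differences of -0.01 on chow and -0.17 on HFD. Without LKO chow libraries 3 and 4 none of the 3 diet calls in LKO remained: U2af1 was at -0.37 (adjusted p = 0.0903), Prpf40b at -0.34 (adjusted p = 0.281) and Sf3a2 at -0.28 (adjusted p = 0.368). With 1 library left out at a time, Sf3a2 lost its call without LKO chow 3 or 4 or any LKO HFD library (adjusted p = 0.0688 to 0.142), and Prpf40b without LKO chow 3 or 4 or LKO HFD 1, 2 or 4 (adjusted p = 0.0742 to 0.109). The test of whether genotype and diet acted together called none of the 50 genes with edgeR, DESeq2 or limma voom, with 3 at an unadjusted p below 0.05 in edgeR and 0.0208% of all genes called.

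Other spliceosome and snRNP assembly genes came from a list of 85, of which 84 were tested. They gave 4 higher and 10 lower calls on chow, where 24.7% of all genes were called (12.9% higher and 11.8% lower). On HFD they gave 2 higher and 11 lower calls, where 17.9% of all genes were called (10.3% higher and 7.57% lower). None was called with diet or in the interaction. Their median log2 fold change was -0.0029 on chow and -0.046 on HFD. Of the 32 early factors, 3 were higher and 5 lower on chow and 1 higher and 6 lower on HFD. Among 36 factors of activation, catalysis and disassembly, 3 were lower on chow, and 1 was higher and 1 lower on HFD. Of the 16 assembly factors, 1 was higher and 2 lower on chow and 4 lower on HFD. Ddx42, a helicase that works with SF3B1, fell by 0.73 on the log2 scale on chow (adjusted p = 6.47e-06) and by 0.80 on HFD (adjusted p = 3.04e-06). Rnpc3, a protein of the minor spliceosome, rose by 0.82 (adjusted p = 0.000499) and 0.77 (adjusted p = 0.0011). Gemin5, which recognises snRNAs for Sm ring assembly, fell by 0.41 (adjusted p = 0.00805) and 0.64 (adjusted p = 0.00035). Rbm17 fell by 0.30 and 0.31, and Txnl4a, a U5 protein, by 0.47 and 0.49. Ppih, a cyclophilin of the tri-snRNP, was called on chow (0.53, adjusted p = 0.00531) and stood at 0.24 on HFD (adjusted p = 0.214). Sart3, which recycles U6, was called on HFD (-0.40, adjusted p = 0.00339) and stood at -0.14 on chow (adjusted p = 0.252).

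The promoters of the 3 genes called in both diets are shown as the 250 bases before the start (RefSeq, GRCm38.p6, plus or minus strand as the gene), since these genes had the same direction in both diets. Capitals mark matches to the motifs searched on both strands: TATAAA (the core promoter box), CCAAT (the box of that name) and CCGGAAG (ETS). Sf3a1 lies on the plus strand at chr11:4160104-4160353, U2af1 on the minus strand at chr17:31658765-31659014 and Snrpn, at the start nearest Snurf, on the minus strand at chr7:60005200-60005449.
Sf3a1: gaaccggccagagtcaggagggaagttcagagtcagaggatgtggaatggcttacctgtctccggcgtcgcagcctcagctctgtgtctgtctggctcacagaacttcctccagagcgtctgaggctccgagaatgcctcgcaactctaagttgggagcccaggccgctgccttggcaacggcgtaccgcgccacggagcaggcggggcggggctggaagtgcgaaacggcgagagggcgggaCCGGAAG
U2af1: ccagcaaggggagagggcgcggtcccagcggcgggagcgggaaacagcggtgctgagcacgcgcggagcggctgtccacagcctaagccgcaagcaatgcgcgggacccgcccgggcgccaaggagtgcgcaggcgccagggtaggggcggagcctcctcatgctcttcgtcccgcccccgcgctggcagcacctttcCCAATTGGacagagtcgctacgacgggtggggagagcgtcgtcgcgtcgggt
Snrpn: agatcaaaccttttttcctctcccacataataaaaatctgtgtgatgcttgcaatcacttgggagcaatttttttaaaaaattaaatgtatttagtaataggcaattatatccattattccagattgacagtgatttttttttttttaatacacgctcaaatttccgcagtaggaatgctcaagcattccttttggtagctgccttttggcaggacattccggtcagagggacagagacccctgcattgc
U2af1 held 31 CpG pairs and overlapping CCAAT matches on the 2 strands, Sf3a1 held 20 CpG pairs and 1 ETS match, and Snrpn held 3 CpG pairs and no match. There were 4 promoter entries for Snrpn, 2 for U2af1 and 1 for Sf3a1, and 1 per gene is shown. U2af1 and Sf3a1 are shown at the entry nearest the GENCODE gene start. For Snrpn that entry, which is not shown, also held 3 CpG pairs and no match. Over 51 promoters of 40 of the spliceosome genes, beside 32851 promoters in all, the ETS motif was found in 27.5% against 6.91%, CCAAT in 41.2% against 33.8% and TATAAA in 5.88% against 12.4%. The median number of CpG pairs was 19 against 6. The 32851 promoters were not limited to genes expressed in these livers, and a gene with several entries counts more than once. Whether these differences hold among expressed genes was not tested. A match is a description of these letters and was not tied to the changes.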

How the data were processed

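Polyadenylated RNA of 16 liver samples, 4 in each of 4 groups, was sequenced in paired reads of 150 bases, per the labels' protocols. The authors deposited expected counts per gene, 51.1% of which were whole numbers (within 1e-06). Bowtie2, DESeq2 and the mm10 build stand in the submitters' processing notes, with the counting tool, annotation and strand setting not given in the sources used here. A second deposited table, labelled RPKM, was not used: for these genes it repeats the counts, with the chow columns displaced by 1 row. Expected counts were rounded, filtered with filterByExpr, scaled by TMM and fitted in edgeR 4.0.16 (R 4.3.3, quasi-likelihood, robust) with 1 mean per group. Calls are 2-sided at a Benjamini-Hochberg adjusted p below 0.05 over all 14434 genes, and the SE is taken from the fold change and its F statistic. Each library's 19142612 to 25120565 counts limit the precision of the lowest genes. Exon lengths and positions came from GENCODE M21, near copies from BLAST 2.17.0 (at least 95% identity over at least 300 bases), and the script was tested on simulated data. Of the 50 genes, 14 have another gene that matches this way.

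Values in every library are given for the called genes (the 6 largest rises and falls where over 10 were called), and for the gene of each role with the lowest p for genotype. For the gene of each role with the highest level per length, either these values or their range are given. The values of 1 of the 50 genes are not reported here, and 49 are drawn. The genes and lists were chosen with earlier results of these data known. The labels do not pair the libraries: 5 of 24 same-numbered pairs had deviations correlated above 0.1 (median -0.0178). No 2 libraries of a group agreed within sampling noise (lowest chi-square per gene 8.27).

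Alternatives were DESeq2 1.42.0, limma 3.58.1 voom with quality weights, DESeq2 size factors and upper-quartile scaling in edgeR, no filter and a mean count of at least 50, a fit of the compared groups alone, a replicate block, omission of each library in turn and of the LKO chow pair 1 and 2 or the pair 3 and 4, and the longest transcript as length.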

Additional observations from a re-analysis of the deposited data

Results flagged for a closer look

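Over 20 named genes and 4 groups each, 2 of 80 groups held a library far from the other 3, by its gap to the nearest against the group's range, where chance gives about 1 in 20. Sf3a1 measured 28.2 CPM in WT HFD library 1, with the nearest of the others at 32.2 CPM. Snrpc measured 13.8 CPM in WT chow library 3, with the nearest at 18.1 CPM.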

How the results depend on the processing

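With the fit limited to the groups compared, 3 of the 50 genes were called on chow, 9 on HFD and 1 for diet in LKO, in place of 11, 5 and 3 (all genes 15.4%, 25.7% and 1.3%). limma voom called 9 on HFD, 1 for diet in WT and 7 for diet in LKO (all genes 31.3%, 3.26% and 14%). Without LKO chow libraries 1 and 2, 14 were called for diet in LKO and 5 in the interaction (all genes 18.9% and 8.61%), and without 3 and 4, 6 on chow and 0 for diet in LKO (16.2% and 1.22%). Leaving out 1 library at a time gave 7 to 12 calls on chow (7 without WT chow 3, LKO chow 3 or LKO chow 4), 4 on HFD, 0 for diet in WT and the interaction, and 1 to 5 for diet in LKO (5 without LKO chow 1, 1 without LKO chow 3 or 4 or LKO HFD 1, 2 or 4). With the replicate block 10 were called on chow, 6 on HFD, 0 and 2 for diet in WT and LKO, and 0 in the interaction. Of 407 alternative values over 22 named results, none changed sign and 70 lost the call. On HFD, Snrpn, U2af1, Sf3a1 and Snrpd3 kept their calls in all 16 alternatives, as did Snrpn and Lsm14b on chow in all 18. Prpf8 on chow lost its call without WT chow 3 (adjusted p = 0.0535), LKO chow 3 (0.0634) or LKO chow 4 (0.0593), and Sf3b1 without LKO chow 3 (0.0663) or 4 (0.0572). With the longest transcript as length, the median level was 8.66 in place of 5.94 CPM per kb, and U2af1 in place of Prpf8 was highest.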
